A study of Mus musculus with 6 samples.

Results

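The 10 genes described here encode the Slit ligands (Slit1, Slit2 and Slit3), 2 of their Robo receptors (Robo1 and Robo2), the netrins Ntn1 and Ntn4, and the netrin receptors Dcc, Unc5b and Unc5c. They were taken by gene name, with earlier results of these data known, and all 10 were found among the 47643 gene identifiers of the count tables. Dorsal root ganglia were taken from mouse embryos (strain CD-1, embryonic day 13), and RNA was sequenced after their uninjured neurons were given a lentivirus carrying either a control hairpin (shControl) or a hairpin against Uhrf1 (shUHRF1). Each group held 3 libraries, numbered 1 to 3 in the labels, and the groups shared strain, age and tissue. The labels do not say whether libraries of a group came from separate cultures, so the p-values speak only for the spread among these libraries, and that spread could be technical.

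Slits are secreted proteins that bind Robo receptors on growth cones. They repel many axons and are also known to promote branching of sensory axons in the spinal cord. Netrin-1 attracts axons through Dcc and repels them through Unc5 receptors, and in the embryo netrin-1 and Unc5c are known to keep early sensory axons out of the dorsal spinal cord. UHRF1 binds hemimethylated CpG sites and brings the maintenance methyltransferase DNMT1 to them. The series asked how transcription in such neurons differs after UHRF1 knockdown.

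Between 15599776 and 22382813 reads per library fell in genes. Uhrf1 itself had 5 to 8 reads in the shControl libraries and 1 to 5 in the shUHRF1 libraries, so the targeted gene was near the detection limit in both groups and gives only a weak check of the labels. Neuronal and sensory markers were abundant in every library (summed over 25 markers, 29100 to 34900 CPM in shControl and 23600 to 30100 CPM in shUHRF1, where CPM counts reads for every 1000000 of the scaled library size). Of the 24 tested sensory and neuronal markers 3 rose and 1 fell (16.7% called, beside 24% of all tested genes, 11.6% higher and 12.4% lower). Runx1, Prrxl1 and Ret rose, with log2 fold changes of 3.4, 1.31 and 1.22, and Tubb3 fell (-0.75). Markers of several other cell types were higher in shUHRF1. Summed fibroblast markers (16 genes) ranged from 44 to 57.8 CPM in shControl and from 80.8 to 193 CPM in shUHRF1, and summed macrophage markers (12 genes) from 7.32 to 13.9 and from 19.1 to 49.4 CPM. Of the 10 tested fibroblast markers 8 rose and 0 fell (80% called), and 3 passed the filter only through shUHRF1. Col6a2, the most abundant of them in shControl, had means of 39.5 and 20.4 CPM and did not pass. Of the 9 tested macrophage markers 5 rose and 0 fell (55.6% called), and 2 passed the filter only through shUHRF1. Summed glial markers (14 genes, of which the abundant Ngfr is also a neuronal gene) overlapped, at 1810 to 2590 CPM in shControl and 1010 to 2110 CPM in shUHRF1. These are bulk libraries, in which a change in the number of cells of a type and a change in RNA per cell cannot be told apart. The part of these markers in the results that follow was not tested, except where values are given.

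Robo1 and Robo2 lie on chromosome 16 of GRCm38, on opposite strands (Robo1 from 72308306 to 73046095, plus strand, and Robo2 from 73891839 to 74411825, minus strand). Their promoter windows are shown because UHRF1 acts at CpG sites and because only one of this receptor pair passed the test. Each window, from RefSeq on GRCm38.p6, covers 250 bases before and 50 after an annotated start, and capitals mark CpG dinucleotides (the letters CG, which read the same on both strands). The Robo1 window is chr16:72662899-72663198 on the plus strand, inside the gene's span, at a start downstream of its first one. The Robo2 window is chr16:74411776-74412075 on the minus strand.
Robo1: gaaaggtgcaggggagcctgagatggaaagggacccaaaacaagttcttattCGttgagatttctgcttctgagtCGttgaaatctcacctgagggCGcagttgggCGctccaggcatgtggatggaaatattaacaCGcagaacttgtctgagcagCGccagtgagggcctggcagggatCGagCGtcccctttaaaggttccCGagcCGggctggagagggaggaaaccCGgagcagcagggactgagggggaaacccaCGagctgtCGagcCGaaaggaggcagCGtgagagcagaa
Robo2: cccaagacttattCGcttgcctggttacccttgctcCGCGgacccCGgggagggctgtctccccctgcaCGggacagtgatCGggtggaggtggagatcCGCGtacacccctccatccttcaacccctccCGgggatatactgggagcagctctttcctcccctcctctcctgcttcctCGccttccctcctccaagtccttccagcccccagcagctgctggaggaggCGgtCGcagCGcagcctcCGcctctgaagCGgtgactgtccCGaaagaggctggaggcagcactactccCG
The Robo1 window held 15 CpGs and this Robo2 window 17, numbers reached by 34.6% and 31.4% of all 32851 promoter windows, whose median was 7. RefSeq lists other Robo2 starts further upstream, whose windows held 9 and 5 CpGs, and the gene counts do not tell which start was used. Windows were used for 7 of the 10 genes. None was found for Slit1 and Ntn1. Dcc was not examined, since windows on its chromosome, 18, were left out. Those of Slit2, Slit3, Ntn4, Unc5b and Unc5c held 30, 41, 31, 36 and 24 CpGs. Methylation was not measured in these libraries, so the counts describe sequence only.

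Slit2 and Slit3 each host a copy of the microRNA gene Mir218 in an intron, on the host's own strand (Mir218-1 at chromosome 5, 48223942 to 48224051, and Mir218-2 at chromosome 11, 35616816 to 35616925). Both copies give the same mature microRNA, which is known to repress Robo1 and Robo2. It is shown here, from RefSeq, because it links the ligand loci to the receptors, with the seed (bases 2 to 8) in capitals.
miR-218-5p: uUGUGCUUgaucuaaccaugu
The tables count 2 reads for Mir218-1 and 0 for Mir218-2 over the 6 libraries, so the microRNA loci could not be followed.

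Among the 10 guidance genes, Robo2 and Ntn1 rose and Slit1 fell in shUHRF1. The remaining 6 of the 9 tested genes did not pass, and Dcc had too few reads to be tested. Genes were tested with edgeR's quasi-likelihood test and called at an adjusted p below 0.05 over all 15573 genes that passed the expression filter. Of those genes, 24% were called, 11.6% higher and 12.4% lower in shUHRF1, and in 44% the CPM of the groups did not overlap. Of the 9 tested guidance genes, 3 were called and 5 did not overlap (Slit1, Robo1, Robo2, Ntn1 and Unc5c). Ntn1 passed the filter only through the shUHRF1 libraries, so the genes that passed lean toward rises. The median log2 fold change of the 9 was -0.17, beside 0.0165 for all tested genes. These shares do not set the family apart from the rest of the transcriptome, and the results concern its single members.

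**Figure D1:**
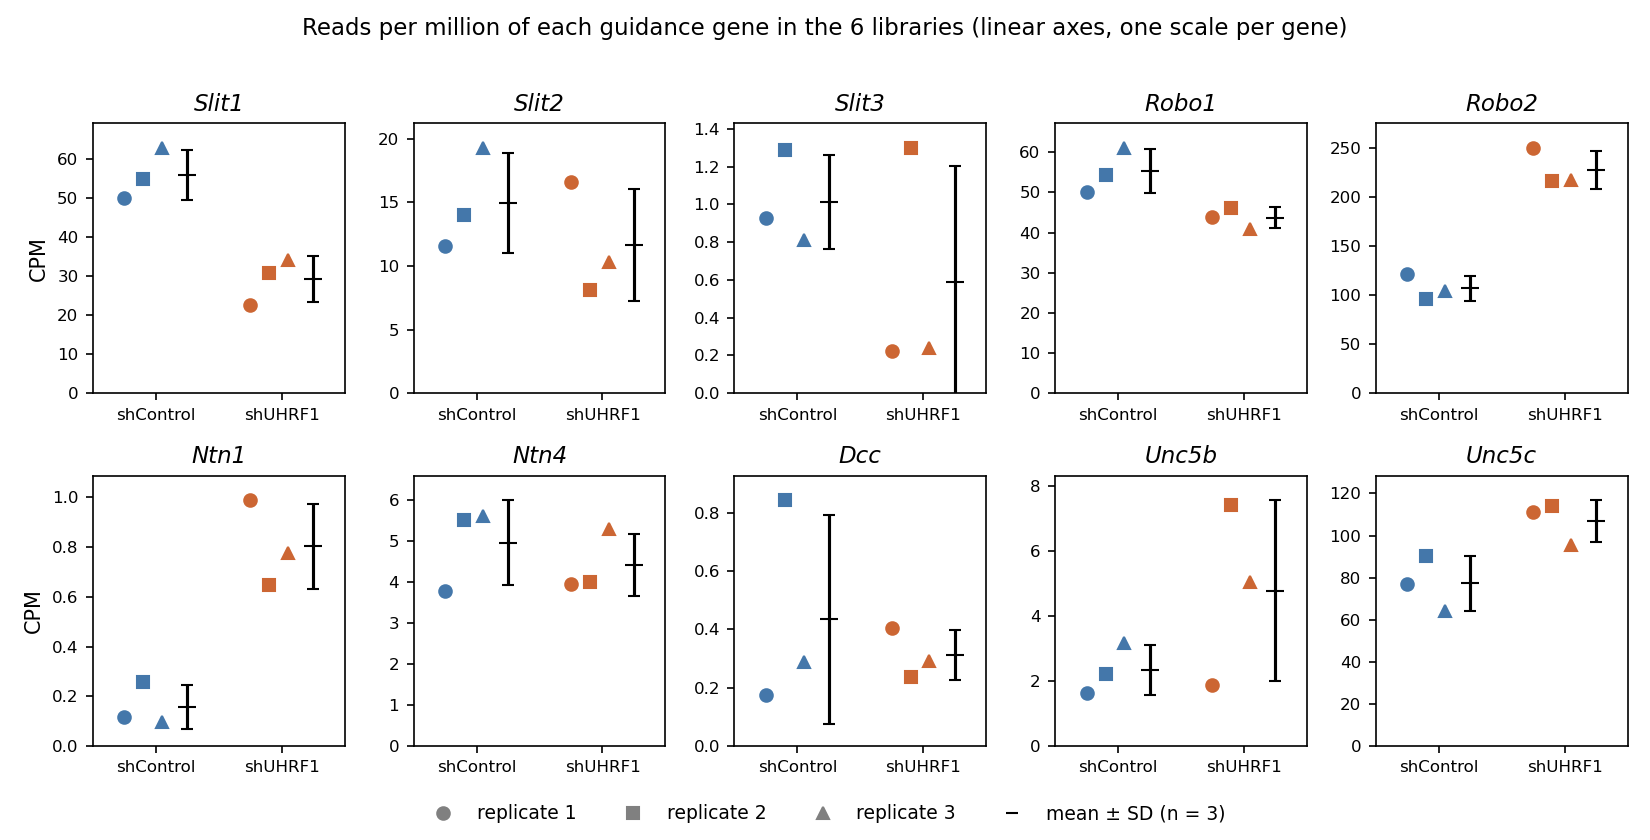
Scaled read counts (CPM, linear axis with its own scale for each gene) of the 10 guidance genes in the 3 shControl and 3 shUHRF1 libraries, with the symbol giving the replicate number and the bar the mean ± SD (n = 3; the lower SD bar of Slit3 in shUHRF1 is cut at 0). All shUHRF1 libraries lie above all shControl libraries for Robo2, Ntn1 and Unc5c, and below them for Slit1 and Robo1.

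Robo2, a Slit receptor, was measured at 121, 95.7 and 104 CPM in shControl replicates 1, 2 and 3, against 250, 216 and 217 CPM in the shUHRF1 replicates of the same numbers. The groups were far apart compared with the spread within them. Its mean of 107 ± 13.1 CPM in shControl compares with 228 ± 19.1 CPM in shUHRF1 (SD, n = 3). That is 2.13-fold higher, or 1.09 ± 0.13 (SE) on the log2 scale, with an edgeR adjusted p of 0.00164. The estimate stayed between 1 and 1.22 in the 14 alternative analyses, and the gene was called in each of them.

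Robo1, the paralog of Robo2, went the other way and did not pass. Its levels were 50.2, 54.4 and 61.1 CPM with the control hairpin, against 43.9, 46.2 and 40.9 CPM with the Uhrf1 hairpin. All shUHRF1 libraries were below all shControl libraries, by a small margin. On the log2 scale the difference was -0.34 ± 0.12 (SE), with an edgeR adjusted p of 0.0739, and -0.21 with upper-quartile scaling, a setting that moves the median of all genes from 0.0165 to 0.142.

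The balance between the paralogs was compared within each library, where it does not depend on scaling between libraries. Robo2 had 2.42, 1.76 and 1.7 reads for each Robo1 read in the shControl libraries, and 5.68, 4.67 and 5.32 in the shUHRF1 libraries. Its mean was 1.96 ± 0.401 in shControl and 5.22 ± 0.512 in shUHRF1 (SD, n = 3). The difference in log2 ratio was 1.43, with p = 0.1 in a two-sided exact permutation test, the smallest p that 3 against 3 libraries allow. The annotated exons of the paralogs have similar total lengths, 16511 bases for Robo1 and 16983 for Robo2.

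**Figure D2:**
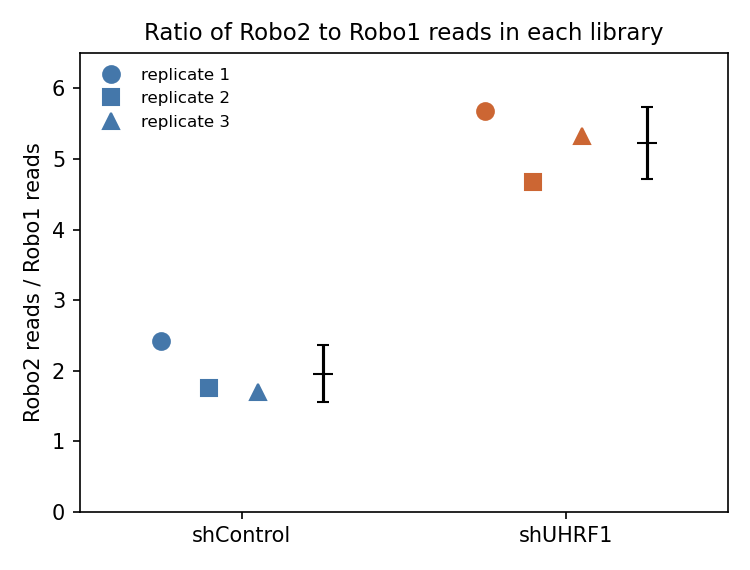
Robo2 reads divided by Robo1 reads (linear axis) in each of the 6 libraries, with bars for the mean ± SD (n = 3). The shControl libraries lie between 1.7 and 2.42 and the shUHRF1 libraries between 4.67 and 5.68.

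Of the ligands of these receptors, Slit1 fell. Slit1 (ENSMUSG00000025020, chromosome 19, 41600257 to 41743665, minus strand) had 50, 54.9 and 62.9 CPM in the shControl libraries, against 22.6, 30.9 and 34.2 CPM in the shUHRF1 libraries. The groups did not overlap, and shUHRF1 replicate 1 was the lowest library. Its mean of 55.9 ± 6.54 CPM in shControl compares with 29.2 ± 5.96 CPM in shUHRF1 (SD, n = 3). That is 1.91-fold lower, or -0.94 ± 0.17 (SE) on the log2 scale, with an edgeR adjusted p of 0.00812. It was called in all 14 alternative analyses, with log2 fold changes of -1.07 to -0.78.

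For Slit2 the shControl libraries gave 11.6, 14 and 19.3 CPM, and those of shUHRF1 gave 16.6, 8.13 and 10.3 CPM. The groups overlapped, since shUHRF1 replicate 1 was above 2 of the 3 shControl libraries. Its log2 fold change of -0.36 ± 0.30 (SE) did not pass (edgeR adjusted p = 0.428).

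Slit3 was near the detection limit, with 16, 20 and 17 reads in shControl and 5, 22 and 5 reads in shUHRF1. Replicate 2 of shUHRF1 lay above all shControl libraries at 1.3 CPM, while shUHRF1 replicates 1 and 3 lay below all of them at 0.225 and 0.242 CPM. The log2 fold change of -0.82 ± 0.67 (SE) did not pass (edgeR adjusted p = 0.412). Without shUHRF1 replicate 2 it was -2.10 with an edgeR adjusted p of 0.0199, so that library decides the call.

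Among the netrins, Ntn1 rose from very few reads. Ntn1 (ENSMUSG00000020902, chromosome 11, 68209364 to 68400823, minus strand) had 2, 4 and 2 reads in shControl and 22, 11 and 16 reads in shUHRF1, or 0.0957 to 0.259 CPM and 0.648 to 0.988 CPM. The lowest shUHRF1 library was above the highest shControl library. Pooled over each group and corrected for depth, 49 against 8 reads is a ratio of 5.48 (95% exact interval 2.57 to 13.4, for counting error alone). In the fit, the log2 fold change was 2.37 ± 0.49 (SE) and the edgeR adjusted p 0.0122. The adjusted p rose to 0.0633 without shControl replicate 1 and to 0.0703 without shControl replicate 3, with log2 fold changes of 2.19 and 2.08.

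The floor plate of the spinal cord is a well known source of netrin-1. Of the 9 floor plate markers examined, Foxa2, Nkx2-2 and Nkx2-9 had 0 reads in all 6 libraries, and Shh had 0.0449 to 0.388 CPM. The summed level of the list was 3.37 to 5.24 CPM in shControl and 5.84 to 20.9 CPM in shUHRF1, most of it from Spon1, which rose. Schwann cells are also known to make netrin-1. Of the 11 tested glial markers 7 rose and 1 fell (72.7% called, beside 24% of all tested genes). Among them Sox10, a transcription factor that defines these cells, rose from a range of 0.174 to 0.453 CPM to one of 1.53 to 2.86 CPM. Of these 11, 4 passed the filter only through shUHRF1, Sox10 among them. The more abundant Mbp fell from a mean of 135 to 70 CPM. The abundant S100b, Pmp22 and Ngfr did not pass (log2 fold changes -0.54, -1.06 and -0.3). The part of glial cells in the rise of Ntn1 was not tested.

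Ntn4, a netrin of basement membranes, was at 3.77, 5.5 and 5.6 CPM with the control hairpin, against 3.95, 4 and 5.28 CPM with the Uhrf1 hairpin. The groups overlapped almost completely. Their difference was -0.17 ± 0.24 (SE) on the log2 scale, with an edgeR adjusted p of 0.662.

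The netrin receptors differed in level by orders of magnitude, and none passed edgeR's test with the settings used throughout, though Unc5c did with several others. Dcc, the receptor for attraction, had 3, 13 and 6 reads in shControl and 9, 4 and 6 reads in shUHRF1. It did not pass the expression filter, and its pooled ratio, 19 against 22 reads corrected for depth, was 0.772 (95% exact interval 0.395 to 1.5, for counting error alone). Dcc was not tested, and the interval leaves out the spread among libraries, so it sets no limit on the change that could be missed.

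Unc5c (ENSMUSG00000059921, chromosome 3, 141465216 to 141834924, plus strand), a receptor for repulsion, had 77.1, 90.3 and 64.3 CPM in the shControl libraries, against 111, 114 and 95.7 CPM in the shUHRF1 libraries. The groups did not overlap, with a small gap between shControl replicate 2 and shUHRF1 replicate 3. This is a log2 fold change of 0.47 ± 0.15 (SE), just outside the threshold (edgeR adjusted p = 0.0523). It was called by DESeq2 (adjusted p = 0.0281) and by limma-voom (adjusted p = 0.0493), and by edgeR with upper-quartile scaling (adjusted p = 0.0294) and with a filter of 2 CPM in 3 libraries (adjusted p = 0.0434). With the replicate number as a block it was 0.48 with an edgeR adjusted p of 0.0169, which is a call. In that fit 31% of all genes were called, 15.3% higher and 15.7% lower. An antisense gene, Gm15688, overlaps 118 of the 19135 exonic bases of Unc5c, and the strand setting of the counting is not given in the sources used here.

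Unc5b, which is also known as a receptor of endothelial cells, was at 1.63, 2.2 and 3.16 CPM with the control hairpin, against 1.89, 7.42 and 5.04 CPM with the Uhrf1 hairpin. Replicate 1 of shUHRF1 lay within the shControl range and replicates 2 and 3 above it. Its log2 fold change of 1.02 ± 0.49 (SE) did not pass (edgeR adjusted p = 0.168). Without shUHRF1 replicate 1 it was 1.4 and passed (edgeR adjusted p = 0.0234). Over the same shUHRF1 libraries, 1, 2 and 3, the summed endothelial and mural markers (16 genes) were 44.7, 63.8 and 64.5 CPM, against 45.5 to 48.2 CPM in shControl. Egfl7, the most abundant of these markers, had 24, 34.7 and 37.6 CPM in those shUHRF1 libraries, against 32.7 to 36.8 CPM in shControl. It did not pass (log2 fold change -0.13, edgeR adjusted p = 0.634). Of the 9 tested genes of that list, edgeR called 3 (Eng, Pdgfrb and Cspg4), each of them higher. That is 33.3%, beside 24% of all tested genes. The 6 not called had log2 fold changes from -0.34 (Pecam1) to 0.98 (Rgs5). Eng, an endothelial gene, rose from a range of 0.174 to 0.239 CPM to one of 1.08 to 1.41 CPM. Eng passed the filter only through shUHRF1. The pericyte genes Pdgfrb and Cspg4 had log2 fold changes of 1.45 and 1.65. The defining endothelial genes Cdh5 and Cldn5 had at most 0.291 and 0.116 CPM in any library. Summed macrophage markers were 19.1, 49.4 and 29.5 CPM in the 3 shUHRF1 libraries, and the part of either marker list in the Unc5b values was not tested.

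**Figure D3:**
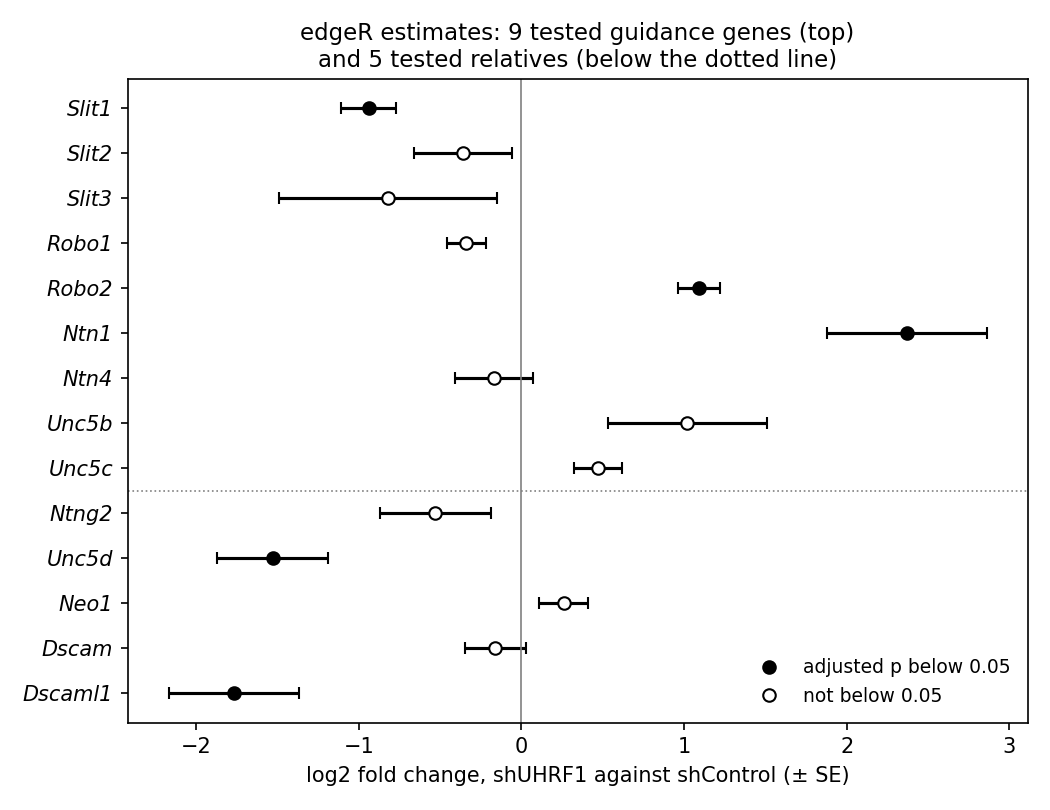
Log2 fold changes of shUHRF1 against shControl (horizontal axis, ± SE from edgeR) for the 9 tested guidance genes and, below the dotted line, 5 tested relatives, with filled points for an adjusted p below 0.05. Robo2 and Ntn1 lie to the right at 1.09 and 2.37, and Slit1, Unc5d and Dscaml1 to the left at -0.94, -1.53 and -1.77.

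Levels were compared between genes as CPM per kilobase of merged exons. In shControl the order was Slit1 (9.45), Robo2 (6.3), Unc5c (4.04), Robo1 (3.35), Ntn4 (1.33), Slit2 (0.588), Unc5b (0.372), Slit3 (0.167), Dcc (0.033) and Ntn1 (0.025). The neighbouring pairs Unc5c and Robo1, Slit2 and Unc5b, and Dcc and Ntn1 overlapped between libraries, and the other neighbours did not. In shUHRF1 Robo2 led at 13.4, followed by Unc5c (5.58) and Slit1 (4.94), which overlapped, and by Robo1 (2.65). With this length Slit1 went from above Robo2 and Unc5c to below Robo2 and level with Unc5c within their spread. Robo2 was above Unc5c in both groups. Ntn1, at 0.128, was above Dcc (0.0235) in every shUHRF1 library and overlapped Slit3 (0.0968).

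The order depends on the length that is used, since merged exons of Slit2 reach 25433 bases and its longest protein-coding transcript 9960. Per kilobase of the longest protein-coding transcript, Robo2 already led in shControl, at 12.4 against 9.86 for Slit1, and Slit2 (1.5) and Ntn4 (1.36) traded places with overlapping ranges. Slit1 and Unc5c (8.01) already overlapped in shControl with that length. In shUHRF1 Slit1 (5.16) was then below Unc5c (11.1) without overlap, and overlapped Robo1 (5.77). With either length Robo2 was the highest of the 10 in shUHRF1, and Dcc and Ntn1 were the lowest in shControl.

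**Figure D4:**
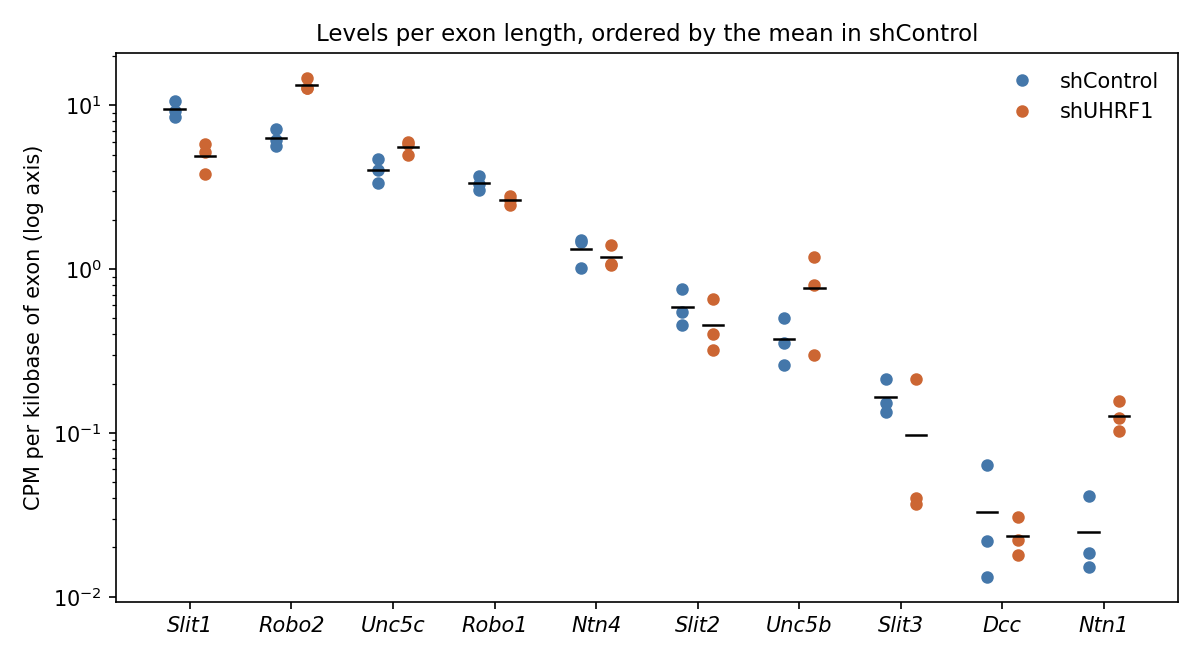
CPM per kilobase of merged exons (log axis) of the 10 genes in each library, ordered by their mean in shControl, with a horizontal line for each group's mean. Slit1, Robo2, Unc5c and Robo1 lie above 2 in every library, and Dcc and Ntn1 lie below 0.2 in every library.

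Other genes of these receptor and ligand families were examined as a list of 11, chosen with earlier results of these data known. Ntn3 is not analysed here, and 5 of the remaining 10 were tested. Of these, 0 rose and 2 fell in edgeR's test, where 11.6% of all tested genes rose and 12.4% fell, so 5 genes are too few to read a direction for the family. Their median log2 fold change was -0.53, beside 0.0165 for all tested genes. The same count of 2 had an unadjusted p below 0.05, and the fit with a replicate block also gave 0 higher and 2 lower. Unc5d, another Unc5 receptor, was at 3.48, 7.12 and 4.11 CPM with the control hairpin, against 1.3, 1.83 and 1.94 CPM with the Uhrf1 hairpin, without overlap (log2 fold change -1.53 ± 0.34, SE, edgeR adjusted p = 0.0158). On the library pairs numbered 1 and 3 alone its adjusted p was 0.0541. Dscaml1, a relative of the netrin receptor Dscam, was at 10.1, 9.71 and 11.5 CPM with the control hairpin, against 1.39, 4.95 and 2.91 CPM with the Uhrf1 hairpin. Its log2 fold change was -1.77 ± 0.40 (SE), with an edgeR adjusted p of 0.0161, which was 0.0594 without shControl replicate 3 and 0.0627 without shUHRF1 replicate 3.

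Neo1, a Dcc-like receptor of netrins and RGM proteins, had 92 ± 11.1 CPM with the control hairpin and 110 ± 16.5 CPM with the Uhrf1 hairpin (SD, n = 3) and did not pass (log2 fold change 0.26, edgeR adjusted p = 0.231). Per kilobase of merged exons it was far above Dcc, at 10.5 against 0.033 in shControl and 12.7 against 0.0235 in shUHRF1. Dscam (log2 fold change -0.16, edgeR adjusted p = 0.578) and the membrane-anchored netrin-G gene Ntng2 (-0.53, edgeR adjusted p = 0.302) did not pass either. Robo3, Robo4, Ntn5, Unc5a and Ntng1 had 6, 3, 1, 10 and 48 reads over all 6 libraries and were not tested.

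The list of other ligands, co-receptors and binding partners had 21 tested members, of which 3 rose and 3 fell (28.6% called, near the 24% of all tested genes, with a median log2 fold change of 0.14, beside 0.0165). Nell2, which encodes a ligand of Robo3, rose from 29.7 ± 3.71 to 61 ± 14.5 CPM (SD, n = 3), or 1.04 ± 0.19 (SE) higher on the log2 scale (edgeR adjusted p = 0.00706). Adgrl2, an adhesion receptor of the latrophilin family that binds FLRT proteins, rose by 0.85 ± 0.18 (log2, SE, edgeR adjusted p = 0.0133), a call lost without shControl replicate 1 (0.0594). Sdc4, a cell-surface proteoglycan named here after its values were seen, rose from 14 to 76 reads and passed the filter only through shUHRF1. On the other side, Rgmb, a ligand of Neo1, dropped from 202 ± 18.7 to 91.5 ± 17.1 CPM (SD, n = 3, log2 fold change -1.14 ± 0.16, SE, edgeR adjusted p = 0.0026). Sdc2, a proteoglycan of the same family as Sdc4, fell by 1.06 on the log2 scale (edgeR adjusted p = 0.00474). Flrt1 fell by 1.18 (edgeR adjusted p = 0.0309), and its call was kept in 2 of 6 fits that each left out 1 library.

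Of 40 tested intracellular effectors of these receptors, 2 rose and 11 fell (32.5% called, beside 24% of all tested genes, with a median log2 fold change of -0.23, beside 0.0165). Rhoa, a small GTPase that controls growth cone collapse, fell from a range of 78.5 to 85.5 CPM to a range of 25.6 to 37.4 CPM (edgeR adjusted p = 0.00154). Tiam1, an activator of the GTPase Rac1, fell from 25.8 ± 2.17 to 14.2 ± 0.37 CPM (SD, n = 3), with a log2 fold change of -0.87 ± 0.13 (SE, edgeR adjusted p = 0.00374). Cap1, a regulator of actin that works with the Abl kinase, fell by 0.63 on the log2 scale (edgeR adjusted p = 0.00762). Ndfip2, which encodes an adaptor of Nedd4-type ubiquitin ligases, had a log2 fold change of -1.12 (edgeR adjusted p = 0.00191). Its relative Ndfip1 had 331 ± 9.27 and 317 ± 41.2 CPM (log2 fold change -0.06, edgeR adjusted p = 0.758), and is named here after its values were seen. Dock1, an activator of Rac1 that acts downstream of Dcc, rose from 8 to 122 reads (log2 fold change 3.74 ± 0.49, SE, edgeR adjusted p = 0.0022) and passed the filter only through shUHRF1.

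Over these 3 lists together (5, 21 and 40 tested genes), 5 genes rose and 16 fell, beside 1807 and 1928 of all 15573 tested genes. With upper-quartile scaling the split was 11 higher and 12 lower, and over all genes it was 2512 higher and 1378 lower in place of 1807 and 1928. With the replicate block 8 rose and 18 fell, beside 2380 and 2440 of all genes. Without single libraries the rises ranged from 2 to 5 and the falls from 7 to 19. Over all genes they ranged from 822 to 1814 and from 946 to 2074 in those fits. Within the lists, the lowest counts came without shControl replicate 1 (2 higher) and without shControl replicate 3 (7 lower). The signs of all 9 tested guidance genes were the same under each scaling.

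Genes with the most similar profile were found by the root mean square difference of centred log2 CPM over the 6 libraries, among up to 12168 expressed protein-coding genes. Closest to Robo2 were Smpd2 (0.0613), Nrm (0.0725) and Dhx33 (0.0795), and closest to Slit1 were Gnai1 (0.056), Txndc17 (0.0617) and Lin7b (0.071). For Ntn1 the closest were Acss1 (0.172), Plch1 (0.295) and Specc1 (0.313), at larger distances than for the other two. No listed guidance gene was among these nearest profiles. With only 3 profiles kept for each gene out of so many, that absence says nothing about the family.

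**Figure D5:**
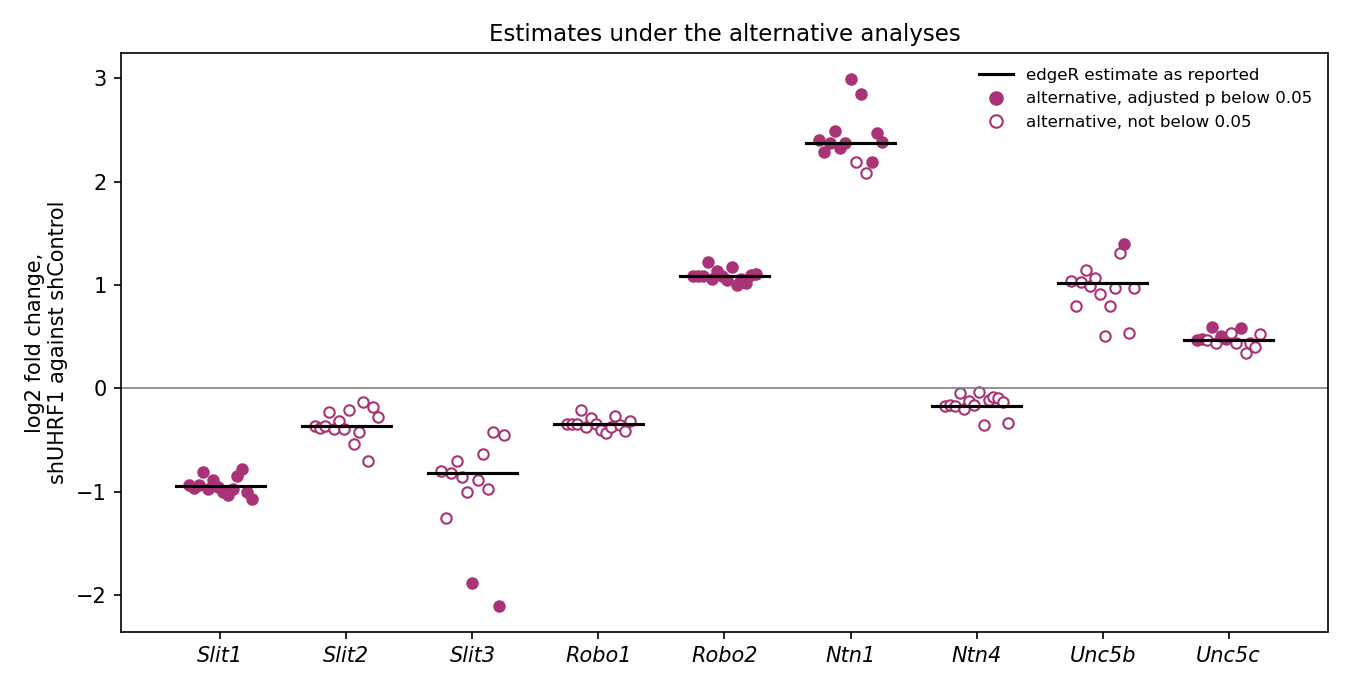
Log2 fold changes of the 9 tested guidance genes (vertical axis) in the 13 or 14 alternative analyses that kept each gene (points, filled for an adjusted p below 0.05), with the reported estimate as a black line. The points of Robo2 (1 to 1.22) and Slit1 (-1.07 to -0.78) are all filled, those of Unc5c (0.34 to 0.59) fall on both sides of the threshold, and those of Slit3 reach -2.10.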

How the data were processed

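The authors deposited 1 table of raw read counts per gene for each of 6 libraries. The submitters' processing notes name the mm10 build and the tools FastQC, STAR, HTSeq and DESeq2. Tool versions, the gene annotation and use of strand in counting were not given in the sources used here. Per the labels' protocols, ribosomal RNA was depleted from total RNA before SMARTer cDNA synthesis. The 5 summary lines were left out: reads outside genes were 8.43% to 17.18% of all entries and reads not uniquely aligned 30.5% to 37.28%. Symbols and exons came from GENCODE M21 on GRCm38 (mm10), where 47224 identifiers matched.

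The counts were tested with edgeR 4.0.16 in R 4.3.3 (filterByExpr, TMM factors, quasi-likelihood F test, two-sided, no block, Benjamini-Hochberg over all tested genes). SEs were derived from the F statistic, and the fit was tested on simulated data. Same-numbered libraries deviated together from their group means (r = 0.32, 0.4 and 0.4, against -0.28 to 0 for other pairs). The numbers were therefore taken as pairs in the replicate block alternative only, and the main tests were unpaired. This pairing was inferred from the data and is not stated in the labels. Pairs within a group differed in counts by 21.5 to 58 times sampling noise (chi-square per gene), so each was counted as its own library.

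The alternatives used DESeq2 1.42.0, limma 3.58.1 (voom), RLE and upper-quartile factors, other low-count filters, the replicate block, pairs 1 and 3 only, each library left out, and, added after seeing the data, another exon length. The members and lists were chosen with earlier results of these data known. Named were the 10 members, their family relatives, up to 5 genes with the smallest p from each other list, and the 3 nearest profiles of each called member. Floor plate, spinal neuron, glial, fibroblast, endothelial, macrophage and sensory markers were listed. Spinal neuron markers summed to 96.3 to 106 CPM in shControl and 74.7 to 155 CPM in shUHRF1, with Mnx1 and Olig2 at 0.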

Additional observations from a re-analysis of the deposited data

How the results depend on the processing

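All log2 fold changes of the 9 tested guidance genes kept their sign in each alternative that gave a value. Robo2 and Slit1 were called in all of them. Ntn1 lost its call in 2 of 13, Slit3 gained one in 2 of 13, Unc5b in 1 of 14 and Unc5c in 6 of 14 (DESeq2, limma-voom, upper-quartile factors, the stricter filter, the replicate block and without shControl replicate 2). The stricter filter (2 CPM in 3 libraries) removed Slit3 and Ntn1. The number of members called higher was 1 to 3, against 2, when single libraries were left out, and the number called lower 1 to 2, against 1, and 2 on library pairs 1 and 3 only. The number of all genes called was 1768 to 3888 in those fits, against 3735. The related genes called higher numbered 2 to 5 in those fits, against 5, and 9 with DESeq2, 11 with upper-quartile factors and 8 with the replicate block. Of all genes, 822 to 1814 were higher without single libraries, against 1807. With DESeq2, upper-quartile factors and the block they were 2036, 2512 and 2380. The related genes called lower numbered 7 to 19 without single libraries, against 16, beside 946 to 2074 of all genes, against 1928. The causes were not tested. The pairing of libraries by number, entered as a replicate block, gave 3 members higher and 1 lower. It changed no other call among the 10 genes than that of Unc5c. The difference in the log2 ratio of Robo2 to Robo1 was 1.43 with the block, and the exact sign-flip test of 3 differences gave p = 0.25, the smallest it allows. Without single libraries that difference was 1.34 to 1.59. Read depth limits Ntn1, Dcc and Slit3, which had at most 22 reads in any library.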
